A study of Mus musculus with 12 samples.

Results

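Extracellular ATP and adenosine handling in cultured mouse helper T cells is described here through 7 genes, taken by Ensembl ID from a list of surface nucleotidases, adenosine deaminase, ATP and adenosine receptors and a nucleoside transporter. They are Entpd1 (the gene of CD39), Nt5e (CD73), Ada, Adora2a, P2rx7, P2rx4 and Slc29a1, 7 of 39179 gene IDs in the count tables. All 7 passed the filter on low counts that left 12189 genes for testing, Nt5e only through its Th17 libraries. The genes were chosen by function with results of these libraries in view, among them the lower Entpd1 level without NKG2D, so measured KO and WT levels of Entpd1 entered the choice. The genotype values of Entpd1 are therefore given as a description, with no test.

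ATP that leaves activated or damaged cells is a danger signal, read by ion channels of the P2X family and by P2Y receptors. CD39 removes phosphates from ATP and ADP to leave AMP, and CD73 removes the last phosphate to give adenosine. Adenosine acts on T cells chiefly through the A2A receptor, which raises cyclic AMP and restrains activation. Adenosine deaminase converts adenosine to inosine, and equilibrative transporters such as ENT1 carry nucleosides across the membrane.

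Bulk RNA was sequenced from 12 libraries in 4 groups of 3. Naive CD4 T cells of OT-II mice, which carry a transgenic receptor for an ovalbumin peptide, were activated with that peptide, anti-CD28 and antigen-presenting cells. Th1 cultures received IL-2, IL-12 and anti-IL-4, and Th17 cultures received IL-1b, IL-6, IL-23, anti-IFNg and anti-IL4, with IL-12 after the second stimulation. Polarization was given at day 0 and day 5, and cells were sorted at day 8 after co-culture. Wild-type (WT) cells were Thy1.2 and gated as NKG2D+, and knockout (KO) cells were Thy1.1 from OT-II x NKG2D-/- mice. Genotype, gate and Thy1 allele thus differ together and cannot be told apart. The labels do not say which libraries share a culture or an animal, so each p-value reflects only how far these particular libraries scatter, which may be technical.

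Levels are CPM, read counts relative to 1e+06 reads, scaled with TMM factors, given for libraries 1, 2 and 3 of a group in that order. Fold changes are log2 values with standard errors (SE) from edgeR's quasi-likelihood test on all 12 libraries. Adjusted p-values are Benjamini-Hochberg over all 12189 genes, and a gene is called at an adjusted p under 0.05. Library totals were 9108203 to 12688637 counts in Th1 and 1647232 to 11587560 in Th17. The 3 shallow Th17 libraries were WT 2 with 2731909 counts, WT 3 with 1647232 and KO 2 with 1722228, in which 1 gene ID took 18.3%, 48.1% and 51.0% of counts. A floor of 3 counts lay between 0.208 and 3.15 CPM. Klrk1, the gene of NKG2D, was at 149 ± 17.9 and 135 ± 5.46 CPM (SD, n = 3) in Th1 WT and Th17 WT. It was at 4.84 ± 1.32 and 2.35 ± 0.902 CPM in Th1 KO and Th17 KO, the direction the labels give.

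The levels of the 7 genes split by culture. P2rx7, P2rx4 and Adora2a were higher in Th17 than in Th1 in both genotypes, and Entpd1, Ada and Slc29a1 were lower. Between genotypes, Entpd1 was lower in the KO of both cultures, and Adora2a and P2rx7 passed the threshold as lower in the KO of Th17. These Th17 calls of Adora2a and P2rx7 held in 10 and 11 of 19 alternative settings, and neither held without the 3 shallow libraries. Nt5e, Ada, P2rx4 and Slc29a1 passed the threshold in neither genotype comparison.

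**Figure D1:**
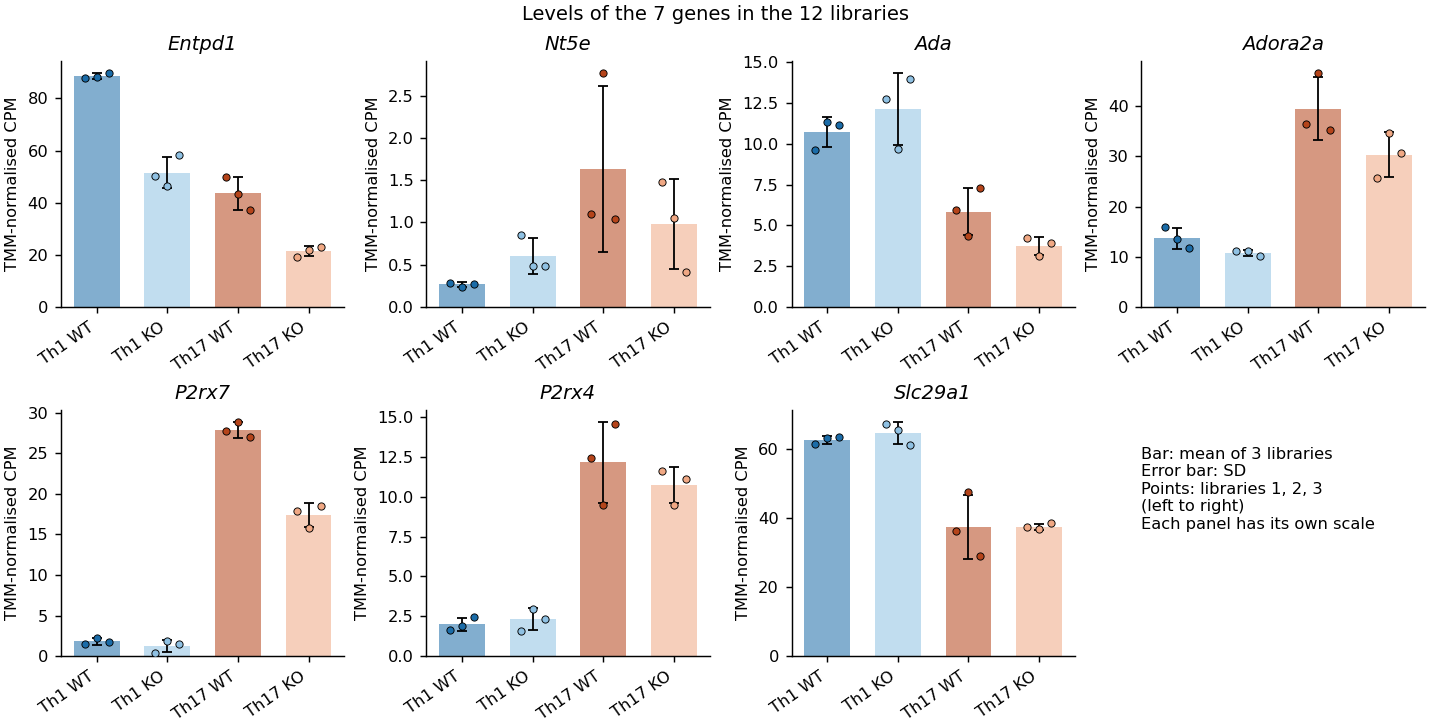
TMM-normalised CPM (y axis, a separate linear scale for each gene) of the 7 genes in the 2 genotypes of each culture. Bars are means of 3 libraries, error bars are SD and points are the libraries. Entpd1 falls from 88.6 CPM in Th1 WT to 21.5 CPM in Th17 KO, while P2rx7 is near the bottom of its scale in both Th1 groups.

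Entpd1 (ENSMUSG00000048120) lies on chromosome 19 from 40612366 to 40741602, plus strand, in GRCm38. Its level was 87.7, 88.2 and 89.8 CPM in Th1 WT and 50.2, 46.5 and 58.1 CPM in Th1 KO. It was 49.8, 43.5 and 37.4 CPM in Th17 WT and 19.4, 22.1 and 22.9 CPM in Th17 KO. All Th1 WT libraries were above all others, and all Th17 KO libraries were below all others. The ranges of Th1 KO and Th17 WT overlapped, so these neighbours in the order did not differ beyond their spread. KO was lower than WT by a log2 fold change of -0.78 ± 0.08 (SE) in Th1, 1.72-fold, and -1.14 ± 0.11 in Th17, 2.20-fold. Without the 3 shallow libraries the Th17 value was -1.24 ± 0.12. The genotype difference in Th17 minus that in Th1 was -0.35 ± 0.14, likewise a description.

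Between cultures, Entpd1 was lower in Th17 by -0.93 ± 0.09 in WT (edgeR adjusted p = 7.98e-09) and by -1.28 ± 0.10 in KO (adjusted p = 3.60e-11). Both calls held in all 19 alternative settings, which changed the tool, scaling, filter or samples, as did the culture calls of Ada, Adora2a, P2rx7, P2rx4 and Slc29a1 below.

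Cell types other than conventional T cells can carry CD39, so their markers were summed. Foxp3, the factor that defines regulatory T cells, had 0 counts in Th17 WT and Th17 KO, and 1 and 3 counts in the Th1 groups. The 6 regulatory T cell markers summed to 1429 to 1465 CPM for WT and 1450 to 1536 CPM for KO in Th1, and to 1784 to 2052 and 1727 to 1967 CPM in Th17, mostly Il2ra, which activated T cells also carry. Ctla4, also a gene of activated T cells, had means of 173 and 174 CPM in the Th1 groups, and of 369 (WT) and 385 CPM (KO) in Th17. Lrrc32, which encodes a TGF-beta docking protein, had a mean of 4.07 CPM in Th1 WT and 12.4 in Th1 KO, and 6.59 and 14.03 CPM in the Th17 groups. Ikzf2 had means of 3.51 CPM in Th1 WT and 4.39 in Th1 KO, and 4.84 and 2.16 CPM in the Th17 groups. Izumo1r, with 19 to 23 counts in a group, had means of 0.490, 0.487, 1.38 and 0.626 CPM in the same order. Between Th17 genotypes, the mean of Lrrc32 was thus higher in the KO, and the means of Ikzf2 and Izumo1r were lower. Lrrc32 spanned 4.15 to 8.90 CPM in WT and 9.41 to 18.9 CPM in KO. Ikzf2 spanned 3.56 to 6.23 CPM in WT and 0 to 3.53 CPM in KO. The Izumo1r ranges overlapped, at 0.791 to 2.08 CPM in WT and 0 to 1.18 CPM in KO. In Th1 the 6 B cell markers summed to 0.347 to 0.392 CPM for WT and 0.347 to 1.13 CPM for KO. The sums in Th17 were 0.847 to 2.37 CPM for WT and 2.10 to 6.13 CPM for KO. Ms4a1 was at 0 counts in Th1 WT and in Th17 WT. The B cell sum reached its highest value in Th17 KO, from 113 counts in that group. The 8 macrophage, monocyte or dendritic cell markers summed to 5.13 to 6.89, 6.25 to 6.94, 7.27 to 8.98 and 7.39 to 11.6 CPM in the same order, with Cd68 the leading gene in each group, and Csf1r was at 0 counts in both Th1 groups. The 6 CD4 T cell markers summed to 1838 to 2003 CPM in Th1 and 2192 to 2571 CPM in Th17. In Th17 KO the 5 Th17 markers summed to 122 to 130 CPM, against 61.3 to 74.5 in Th17 WT. The 4 Th1 markers summed to 1167 to 1445 CPM in Th1 WT and 1001 to 1226 CPM in Th1 KO, and to 888 to 1054 and 658 to 720 CPM in the Th17 groups. In the same order Ifng had means of 748, 647, 195 and 55.0 CPM. The other markers ran differently. Tbx21 and Il12rb2 were lowest in Th1 KO, at 55.3 and 387 CPM, and highest in Th17 WT, at 94.0 and 661 CPM. Cxcr3 was lowest in Th1 WT, at 0.774 CPM, and highest in Th17 KO, at 19.2 CPM. Mitochondrial genes took 14.2% to 15.1% of counts in Th1. In Th17 their share was 16.9% to 18.6% for WT and 19% to 20.8% for KO, with the 1 dominant ID left out of the total. The part of other cells, polarization and RNA quality in the gene results was not tested, and in bulk RNA fewer cells of a type and less RNA per cell cannot be told apart.

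Nt5e (ENSMUSG00000032420, chromosome 9, 88327197 to 88372092, plus strand), which makes adenosine from the AMP that CD39 leaves, was close to the detection limit. Its raw counts were 4, 3 and 4 in Th1 WT, 9, 7 and 6 in Th1 KO, 13, 7 and 1 in Th17 WT and 19, 1 and 5 in Th17 KO. Group means were 0.268, 0.607, 1.64 and 0.983 CPM. The level the filter asks for, 0.942 CPM before TMM scaling, was reached in 4 libraries, 1 of Th1 KO, 2 of Th17 WT and 1 of Th17 KO. Nt5e was thus tested only through libraries of the culture where it was higher, and with the 2 WT groups alone it did not enter the test. Its culture differences are therefore given as a description, with no test. In WT the culture difference was 2.37 ± 0.60, and 2.36 ± 0.60 without the filter. In KO it was 0.70 ± 0.50, and it was -0.31 without Th17 KO 1 and 1.26 without Th17 KO 3. The genotype differences were 1.10 ± 0.58 in Th1 (edgeR adjusted p = 0.355) and -0.56 ± 0.53 in Th17 (adjusted p = 0.661), and neither passed the threshold.

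Levels can be set beside each other between genes only per kilobase of exon. On the scale of CPM per kilobase, Entpd1 was at 15.9 in Th1 WT and Nt5e at 0.0311. In Th17 KO the values were 3.85 and 0.114. Entpd1 per Nt5e on this scale spanned 466 to 579 for WT libraries of Th1, and 91.0 to 185 for KO libraries of that culture. Among Th17 libraries the WT ratio spanned 24.2 to 69.7 and the KO ratio 20.2 to 84.2, so the genotypes overlapped there. These ratios rest on 1 to 19 Nt5e counts per library. Nt5e was tested only through Th17 libraries, and genotype levels of Entpd1 entered the choice of genes. All these ranges are therefore a description, with no test. CD39 message was above CD73 message in all 12 libraries.

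Ada (ENSMUSG00000017697, chromosome 2, 163726584 to 163750239, minus strand) clears adenosine by deamination. It was at 9.65, 11.4 and 11.2 CPM in Th1 WT and 12.8, 9.66 and 13.97 CPM in Th1 KO. It was at 5.93, 4.35 and 7.27 CPM in Th17 WT and 4.20, 3.15 and 3.95 CPM in Th17 KO. Every Th17 library was below every Th1 library. The culture difference was -0.91 ± 0.20 in WT (edgeR adjusted p = 4.40e-04) and -1.58 ± 0.18 in KO (adjusted p = 5.58e-08). The genotype difference was 0.17 ± 0.14 in Th1 (adjusted p = 0.616) and -0.50 ± 0.24 in Th17 (adjusted p = 0.273). In Th17 the KO range was below the WT range without passing the test, a separation downward seen in 9.59% of all genes tested.

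Adora2a (ENSMUSG00000020178, chromosome 10, 75316877 to 75334784, plus strand) encodes the A2A adenosine receptor. It was at 15.9, 13.6 and 11.7 CPM in Th1 WT and 11.2, 11.3 and 10.2 CPM in Th1 KO. In Th17 WT it was at 36.5, 46.7 and 35.3 CPM, and in Th17 KO at 25.7, 34.7 and 30.7 CPM. All Th17 libraries were above all Th1 libraries, and KO was below WT without overlap in both cultures, as 13.4% of all genes were in Th1 and 9.59% in Th17. Th17 exceeded Th1 by 1.51 ± 0.13 in WT, 2.86-fold (edgeR adjusted p = 4.67e-10), and by 1.40 ± 0.13 in KO (adjusted p = 9.41e-10). The genotype difference was -0.34 ± 0.13 in Th1 (adjusted p = 0.155) and -0.45 ± 0.13 in Th17 (adjusted p = 0.0411, range over the alternatives 0.0118 to 0.287).

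The Th17 genotype call of Adora2a held in 10 of 19 alternatives. Without the 3 shallow libraries the value was -0.38 ± 0.15 (edgeR adjusted p = 0.237). Leaving out single libraries gave adjusted p = 0.287 without Th17 KO 1, 0.226 without Th17 WT 2, 0.053 without Th17 WT 3, 0.0637 without Th1 WT 2 and 0.0584 without Th1 KO 2. Every alternative kept the direction.

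Adora2a and Entpd1 moved in opposite directions between cultures, so their within-library ratio per kilobase was far from equal between the groups. Adora2a per Entpd1 ran from 0.238 to 0.330 for WT and 0.319 to 0.441 for KO in Th1, and from 1.34 to 1.95 for WT and 2.42 to 2.86 for KO in Th17. Both Th17 ranges lay above both Th1 ranges. Genotype levels of Entpd1 entered the choice of genes, so the genotype ranges of this ratio are a description, with no test.

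P2rx7 (ENSMUSG00000029468, chromosome 5, 122643911 to 122691432, plus strand) encodes a channel that opens at high extracellular ATP and can lead to pore formation and cell death. It was at 1.45, 2.27 and 1.80 CPM in Th1 WT and 0.378, 1.81 and 1.45 CPM in Th1 KO. In Th17 WT it was at 27.7, 28.9 and 27.0 CPM, and in Th17 KO at 17.9, 15.8 and 18.5 CPM. The lowest Th17 library was several times above the highest Th1 library, and the 2 Th17 groups did not overlap. The culture difference was 3.92 ± 0.21 in WT, 15.1-fold (edgeR adjusted p = 1.03e-13), and 3.80 ± 0.23 in KO, 13.95-fold (adjusted p = 4.68e-13). The genotype difference was -0.52 ± 0.31 in Th1 (adjusted p = 0.433) and -0.64 ± 0.18 in Th17 (adjusted p = 0.0299, range over the alternatives 0.00352 to 0.241).

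The Th17 genotype call of P2rx7 held in 11 of 19 alternatives. Without the 3 shallow libraries the value was -0.61 ± 0.24 (edgeR adjusted p = 0.241). Without a single library, adjusted p was 0.126 for Th17 WT 1, 0.0965 for WT 2, 0.0553 for WT 3, 0.112 for KO 1, 0.054 for KO 2 and 0.086 for KO 3. The log2 value itself stayed between -0.67 and -0.62 in these 12 fits with 1 library left out.

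P2rx4 (ENSMUSG00000029470, chromosome 5, 122707544 to 122729738, plus strand) encodes a P2X channel that responds to lower ATP than P2X7. It was at 1.67, 1.88 and 2.43 CPM in Th1 WT and 1.61, 2.99 and 2.34 CPM in Th1 KO. It was at 12.5, 9.49 and 14.5 CPM in Th17 WT and 11.6, 9.45 and 11.1 CPM in Th17 KO. The cultures separated fully and the genotypes overlapped. The culture difference was 2.57 ± 0.22 in WT, 5.93-fold (edgeR adjusted p = 7.46e-10), and 2.24 ± 0.21 in KO, 4.71-fold (adjusted p = 1.15e-09). The genotype difference was 0.24 ± 0.25 in Th1 (adjusted p = 0.717) and -0.09 ± 0.20 in Th17 (adjusted p = 0.892).

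Slc29a1 (ENSMUSG00000023942, chromosome 17, 45585200 to 45599606, minus strand) encodes the nucleoside transporter ENT1. It was at 61.5, 63.2 and 63.5 CPM in Th1 WT and 67.4, 65.6 and 61.2 CPM in Th1 KO. It was at 36.2, 47.5 and 29.1 CPM in Th17 WT and 37.5, 36.8 and 38.5 CPM in Th17 KO. Th17 was below Th1 throughout, and the genotypes overlapped in each culture. The culture difference was -0.71 ± 0.09 in WT (edgeR adjusted p = 5.69e-07) and -0.77 ± 0.08 in KO (adjusted p = 2.16e-08). The genotype difference was 0.04 ± 0.07 in Th1 (adjusted p = 0.848) and -0.02 ± 0.10 in Th17 (adjusted p = 0.986).

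Per kilobase, the order of the 7 genes changed between cultures. In Th1 WT, Entpd1 and Slc29a1 led at 15.9 and 15.6 CPM per kilobase, followed by Ada at 5.36, Adora2a at 4.48, P2rx7 at 0.309, P2rx4 at 0.284 and Nt5e at 0.0311. In Th17 WT, Adora2a led at 12.9, followed by Slc29a1 at 9.37, Entpd1 at 7.81, P2rx7 at 4.67, Ada at 2.92, P2rx4 at 1.73 and Nt5e at 0.19. In Th17 KO, Adora2a at 9.92 and Slc29a1 at 9.37 stood above Entpd1 at 3.85. The ratio of Entpd1 to Slc29a1 in a library ran from 1.002 to 1.03 for WT and 0.509 to 0.682 for KO in Th1, and from 0.658 to 0.989 for WT and 0.372 to 0.431 for KO in Th17.

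**Figure D2:**
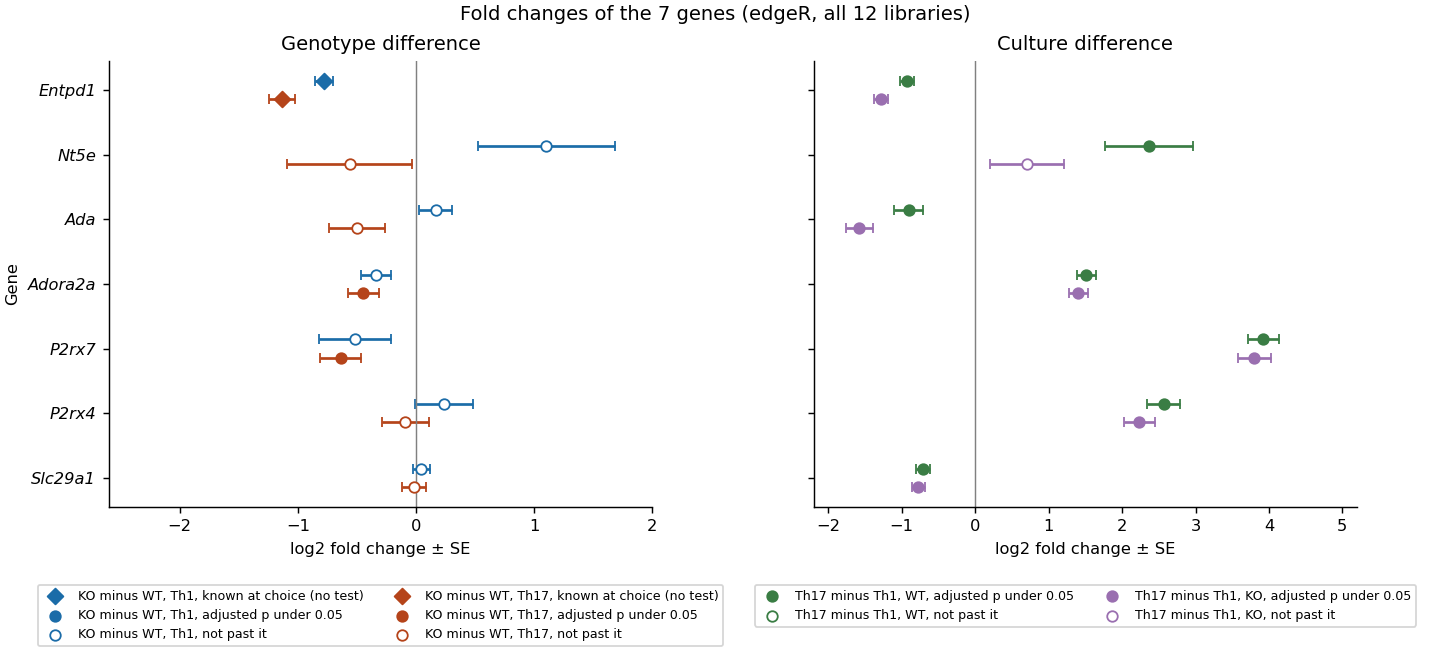
Log2 fold change ± SE (x axis) of the 7 genes from the fit on 12 libraries, for KO minus WT on the left and Th17 minus Th1 on the right. Filled circles passed an adjusted p of 0.05, open circles did not, and diamonds are the Entpd1 genotype values known when the genes were chosen. Nt5e was tested only through Th17 libraries, so its culture values are a description. The genotype values lie between -1.14 and 1.10, and the culture values reach 3.92 for P2rx7.

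Entpd1 was known to be lower in the KO, so the genotype counts are over the other 6 genes. In Th1, edgeR, DESeq2 and limma-voom each called 0 of 6, and 1, Adora2a, was at an unadjusted edgeR p under 0.05. Of all genes tested there, 4.61% were called and 2.92% were lower. In Th17, 2 of 6 were called lower, Adora2a and P2rx7, and 0 higher, against 5.83% of all genes called and 4.02% lower. The Th17 count was 1 with DESeq2, and 0 with limma-voom, without the 3 shallow libraries, without Th17 WT 2, without Th17 WT 3 or without Th17 KO 1. The median log2 difference of the 6 genes was 0.11 in Th1 and -0.47 in Th17, beside medians of -0.002 and 0.0016 over all genes. Between cultures, 4 of the 7 genes were called higher and 3 lower in Th17 WT, against 47.1% of all genes called, 23.5% higher and 23.6% lower. Nt5e is among the 4, and its call is no support because it was tested only through Th17 libraries. In KO, 3 of the 7 genes were called higher and 3 lower, against 53.6% of all genes, 26.9% higher and 26.7% lower. The CPM ranges of the cultures did not overlap in 52.1% of all genes in WT and 55.7% in KO. For the difference of genotype differences, 0 of the 6 were called by edgeR, beside 0.591% of all genes, and 2, Nt5e and Ada, were at an unadjusted p under 0.05. DESeq2 and limma-voom also called 0 of 6.

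P2rx7 and P2rx4 are neighbours on the same strand, with 16111 bp between the end of the first and the start of the second. The other tested genes within 200 kb on either side were listed after the values of the pair were seen. Of these 7 neighbours, Ift81, a gene of ciliary transport on the opposite strand upstream of P2rx7, had the largest rise in Th17. It was higher by 3.25 ± 0.29 in WT (edgeR adjusted p = 8.25e-10). The KO value was 2.45 ± 0.22 (edgeR adjusted p = 7.57e-10). Its mean levels were 0.66 (WT) and 1.60 CPM (KO) in Th1, and 5.90 (WT) and 8.34 CPM (KO) in Th17. Camkk2, which lies directly beyond P2rx4 and encodes a calcium-dependent kinase, differed between cultures by -0.10 ± 0.11 in WT (adjusted p = 0.488) and -0.10 ± 0.10 in KO (adjusted p = 0.414). On the other side of Ift81, Atp2a2, the calcium pump of the endoplasmic reticulum, differed by 0.09 ± 0.07 in WT (adjusted p = 0.303). The remaining neighbours had WT values from -0.22 for Anapc5 to 0.80 for Kdm2b. Both of these genes passed the threshold in each genotype. For Kdm2b, higher in Th17, the adjusted p was 1.07e-08 for WT and 1.86e-07 for KO (edgeR). For Anapc5, lower in Th17, it was 0.00792 for WT and 0.00114 for KO. Anapc7 and Rnf34 were called higher among KO libraries only, by 0.35 ± 0.11 (edgeR adjusted p = 0.0122) and 0.22 ± 0.09 (adjusted p = 0.0445).

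**Figure D3:**
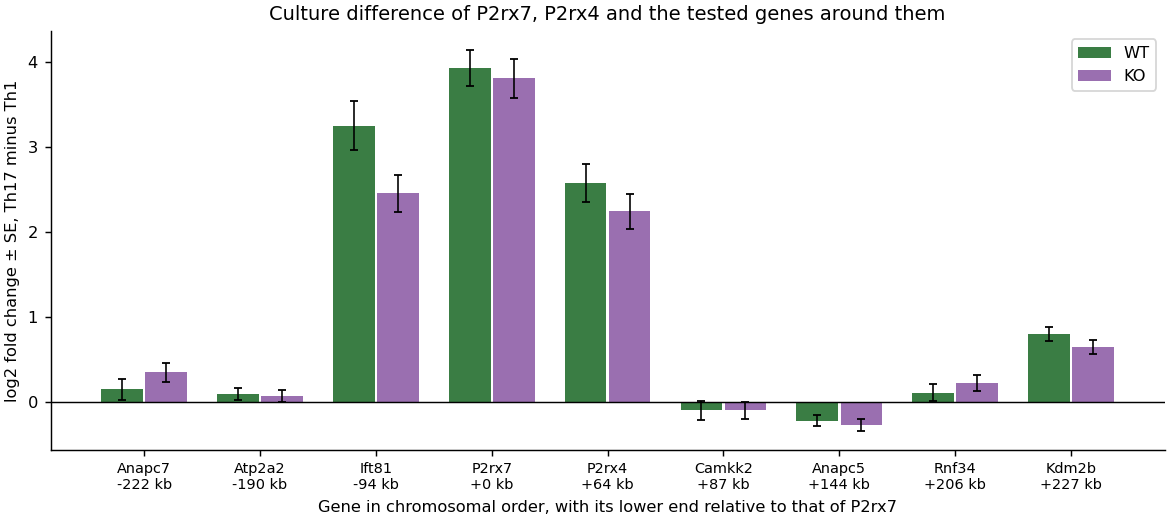
Log2 fold change ± SE of Th17 minus Th1 in WT and KO (y axis) for P2rx7, P2rx4 and the 7 tested genes around them, in chromosomal order and evenly spaced, with the distance in kb of each gene's lower end from that of P2rx7 below its name. Ift81, P2rx7 and P2rx4 rise by 2.24 to 3.92, and the genes on both sides of them lie between -0.27 and 0.80.

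Because P2rx7 and P2rx4 moved together, an upstream window of each is shown. P2rx7 has 2 starts, and only the window that held matches is printed. The window of its first start held none of the motifs searched. Promoters of 6 of the 7 genes were found in RefSeq (GRCm38.p6), and the windows are the 250 bases before a start. The motifs were chosen after the expression values were seen. Both strands were searched for TTCNNNGAA (STAT), AGGTCA (RORE half-site), GGTGTGA (T-box) and TGACGTCA (CRE). These occur in 7.02%, 14.02%, 3.33% and 1.55% of 32851 promoter windows of this length. AGGTCA is only part of the letters that ROR receptors bind, so a match alone does not name the receptor. The window of the second, intronic P2rx7 start is chr5:122650133-122650382 on the plus strand, and that of P2rx4 is chr5:122707294-122707543 on the plus strand. Capitals mark matches, read 5′ to 3′.
P2rx7 start 2: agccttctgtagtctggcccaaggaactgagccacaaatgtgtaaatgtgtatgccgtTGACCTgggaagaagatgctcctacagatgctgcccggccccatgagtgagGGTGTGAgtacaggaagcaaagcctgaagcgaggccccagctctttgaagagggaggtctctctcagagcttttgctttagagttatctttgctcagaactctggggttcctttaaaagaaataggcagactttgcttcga
P2rx4: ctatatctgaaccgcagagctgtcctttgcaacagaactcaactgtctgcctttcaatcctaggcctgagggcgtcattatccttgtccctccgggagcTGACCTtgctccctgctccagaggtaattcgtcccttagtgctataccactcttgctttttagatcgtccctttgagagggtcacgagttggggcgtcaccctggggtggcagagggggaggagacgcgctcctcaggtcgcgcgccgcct

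Each of the printed windows held TGACCT, the reverse complement of AGGTCA. It lay 192 to 187 bases before the second start of P2rx7 and 151 to 146 bases before the start of P2rx4. The shares above are for single windows, and P2rx7 has 2. P2rx7 start 2 also held GGTGTGA at 141 to 135 bases. Elsewhere, the Ada window held TTCCGGGAA at 90 to 82 bases before its start, and 2 of the Slc29a1 starts held AGGTCA on one strand or the other. The windows of Entpd1, of Nt5e and of the first P2rx7 start held none of the 4 motifs. These are letter matches, not measured binding.

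Genes whose profile over the 12 libraries was most like that of Entpd1 were ranked by the root mean square difference of mean-centred log2 CPM among 8925 genes. Among the closest 5 were Hlx at 0.16, a homeobox factor of Th1 cells, Il18rap at 0.239, an IL-18 receptor chain, Sh2d3c at 0.253, an adaptor protein, and Chst2 at 0.259, a sulfotransferase. The gene at rank 6 stood at 0.264 and the median gene at 0.744. In the order WT and KO of Th1, then WT and KO of Th17, Hlx was at 33.1 ± 3.97, 21.4 ± 1.57, 19 ± 1.17 and 8.70 ± 0.258 CPM (SD, n = 3). Il18rap was at 309 ± 5.83, 227 ± 18.3, 147 ± 25.6 and 81.9 ± 8.28 CPM. Like Entpd1, both were highest in Th1 WT and lowest in Th17 KO. These genes were picked for their likeness, so their differences are a description.

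**Figure D4:**
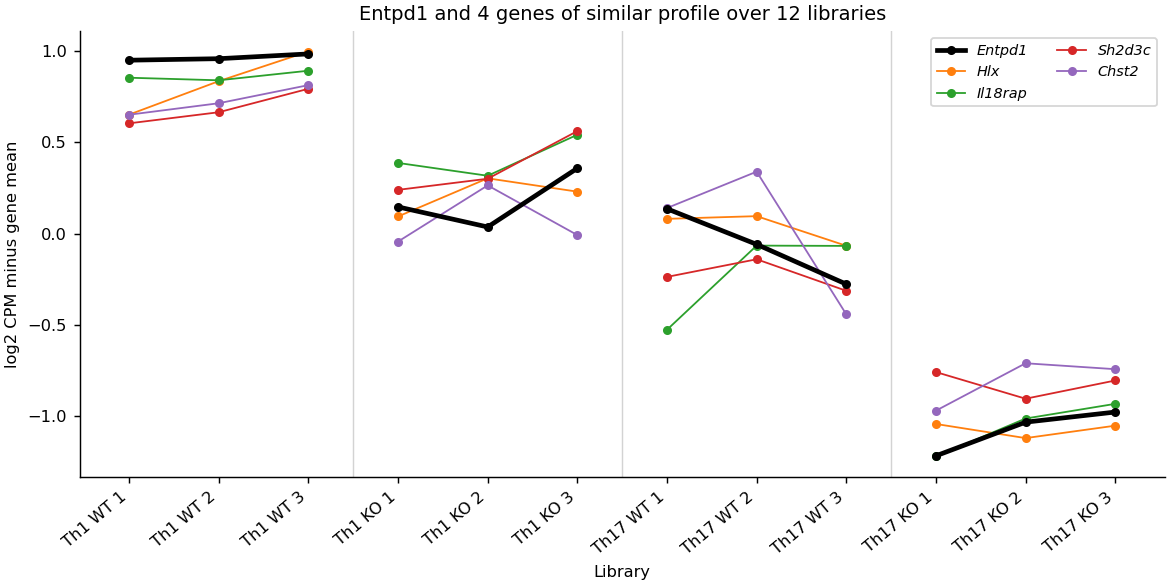
Log2 CPM minus the gene's mean over 12 libraries (y axis) for Entpd1 (thick black line) and 4 of the 5 genes of most similar profile, by library (x axis). Lines join libraries of a group only to guide the eye. All 5 genes shown are highest in the Th1 WT libraries and lowest in the Th17 KO libraries.

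Other genes of the pathway were taken from lists of surface enzymes, intracellular relatives of CD39, purine metabolism, receptors, transporters, ATP release, cyclic AMP signalling and transcription factors. Of 80 genes with an ID, 56 passed the filter, 5 of them (Enpp2, Ak1, P2rx5, P2ry12 and Adcy9) only through Th17 libraries. In WT, 24 were higher and 16 lower in Th17, and in KO 23 were higher and 19 lower, shares to be read beside the 47.1% and 53.6% of all genes called. Enpp2, Ak1, P2rx5 and P2ry12 are among the higher genes in both genotypes, and Adcy9 in KO. For these 5 the filter favoured that direction, so their calls lend the counts no support. The median log2 culture difference of the 56 tested genes, these 5 included, was 0.20 in WT and 0.11 in KO. The medians of all genes were -0.008 and 0.0009. Over the alternatives the WT count ran from 19 to 25 higher and 12 to 18 lower, and the KO count from 18 to 26 higher and 15 to 20 lower.

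Among adenosine receptors, 2 of 3 were tested besides Adora2a. Adora2b, whose A2B receptor also raises cyclic AMP, was at 2.10, 0.94 and 2.15 CPM in Th1 WT and 14.7, 5.14 and 6.23 CPM in Th17 WT. It was higher in Th17 by 2.67 ± 0.38 in WT (edgeR adjusted p = 5.18e-05) and 2.53 ± 0.37 in KO (adjusted p = 4.89e-05). Adora3, whose A3 receptor lowers cyclic AMP, was at 26.2, 23.3 and 27.4 CPM in Th1 WT and 3.14, 0.791 and 2.08 CPM in Th17 WT. It was lower in Th17 by -3.27 ± 0.26 in WT (adjusted p = 6.77e-09) and -4.14 ± 0.22 in KO (adjusted p = 1.88e-11). Adora1 had 0 counts. The Adora3 locus overlaps Tmigd3 on the same strand, so its reads are uncertain between the pair. The 2 receptors that raise cyclic AMP were thus higher in Th17 and the third was lower.

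Adora3 was also higher in Th1 KO than in Th1 WT, at 34.02, 39.4 and 39.9 CPM, by 0.56 ± 0.13 (edgeR adjusted p = 0.0174, range over the alternatives 8.35e-07 to 0.114). The adjusted p was 0.0568 without Th1 WT 1, 0.114 without Th1 WT 2, 0.106 without Th1 KO 2 and 0.0788 without Th1 KO 3.

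Of the 15 cyclic AMP genes, all tested, 8 were higher and 2 lower in Th17 WT, with a median log2 difference of 0.31. Among all genes tested, 23.5% were called higher and 23.6% lower. Pde4b, a phosphodiesterase that breaks down cyclic AMP, was higher by 2.15 ± 0.18 in WT (edgeR adjusted p = 8.43e-06) and 2.07 ± 0.18 in KO (adjusted p = 8.32e-06). Pde4d was higher by 0.67 ± 0.09 in WT (adjusted p = 5.48e-07). Pde3b, another such enzyme, was the only gene of this list whose genotype call in Th17 held in every alternative. It was higher in the KO by 0.39 ± 0.06 (adjusted p = 2.92e-04, range over the alternatives 1.22e-05 to 0.00861).

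Of the 6 surface enzymes tested besides Entpd1 and Nt5e, 3 were higher, Enpp2 among them, and 1 lower in Th17 WT. Over all genes tested, 23.5% were called higher and 23.6% lower. Enpp1, which splits ATP to AMP and pyrophosphate, was higher by 0.93 ± 0.13 in WT (edgeR adjusted p = 1.06e-06) and 1.20 ± 0.12 in KO (adjusted p = 5.85e-09). Enpp2, the autotaxin gene, was at 0.653, 0.235 and 0.347 CPM in Th1 WT, from 3 to 9 counts, and 11.4, 2.77 and 3.11 CPM in Th17 WT. It is given as levels because it passed the filter only through Th17 libraries. Enpp4 was lower by -0.97 ± 0.15 in WT (adjusted p = 8.62e-06). The third higher gene, Cd38, an enzyme that consumes NAD, was near the threshold at 0.81 ± 0.33 (adjusted p = 0.0466, range over the alternatives 0.00506 to 0.512). Entpd5, an intracellular relative of CD39, was lower by -0.98 ± 0.10 in WT (adjusted p = 9.76e-09) and -1.31 ± 0.09 in KO (adjusted p = 6.22e-12).

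In purine metabolism, 4 of 11 genes were higher, Ak1 among them, and 2 lower in Th17 WT. The shares over all genes were 23.5% and 23.6%, and Ak1 was tested only through Th17 libraries. Adk, the kinase that returns adenosine to AMP inside the cell, was higher by 0.59 ± 0.11 in WT (edgeR adjusted p = 1.12e-04) and 0.55 ± 0.10 in KO (adjusted p = 4.27e-05). Its direction was opposite to that of Ada. Dpp4, which encodes the CD26 protein that binds adenosine deaminase at the cell surface, was higher by 0.41 ± 0.09 in WT (adjusted p = 3.45e-04). Ampd2, an AMP deaminase, was the only gene of the pathway lists whose genotype call in Th1 held in every alternative, higher in the KO by 0.34 ± 0.07 (adjusted p = 0.00203, range over the alternatives 1.87e-04 to 0.0281).

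Of the P2X receptors, P2rx5 was at 0.0726, 0.392 and 0 CPM in Th1 WT and 1.53, 2.77 and 4.15 CPM in Th17 WT, with 6 and 1 counts in all of Th1 WT and Th1 KO. P2rx3, at 9.65, 9.64 and 10.3 CPM in Th1 WT and 1.86, 2.77 and 3.11 CPM in Th17 WT, was lower in Th17 by -2.21 ± 0.25 in WT (edgeR adjusted p = 4.60e-08). It overlaps Ssrp1, a far more abundant gene on the opposite strand, so its counts are uncertain.

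Among P2Y receptors, P2ry14, which responds to UDP sugars, had values of 74.8, 74.4 and 73.5 CPM in Th1 WT and 74.3, 74.5 and 67.7 CPM in Th1 KO. It was at 21.01, 20.96 and 18.7 CPM in Th17 WT and 11.3, 8.40 and 7.81 CPM in Th17 KO. The Th1 groups overlapped, Th17 WT was lower and Th17 KO was lowest. Th17 was lower than Th1 by -1.84 ± 0.10 in WT (edgeR adjusted p = 1.14e-13). KO was lower than WT by -1.12 ± 0.13 in Th17 (adjusted p = 3.71e-06, range over the alternatives 1.90e-14 to 0.00121). The P2ry14 locus lies within Med12l on the opposite strand.

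Of the other nucleoside transporters, 3 were tested. Slc29a2, the gene of ENT2, was at 1.16, 1.18 and 0.694 CPM in Th1 WT and 2.29, 5.14 and 1.04 CPM in Th17 WT, with overlapping ranges. It was higher in Th17, opposite to Slc29a1, by 1.47 ± 0.41 in WT (edgeR adjusted p = 0.0041, range over the alternatives 0.00135 to 0.0441) and 0.93 ± 0.37 in KO (adjusted p = 0.0364, range over the alternatives 0.0123 to 0.145). Slc29a3, the gene of ENT3, differed by 0.30 ± 0.15 in WT (adjusted p = 0.119). Slc28a2, a concentrative transporter of purine nucleosides, was at 70.8, 64.9 and 71.2 CPM in Th1 WT and 38.4, 42.7 and 30.1 CPM in Th17 WT. It was at 61.8, 58.6 and 67.4 CPM in Th1 KO and 21.9, 23.1 and 24.5 CPM in Th17 KO. It was lower in Th17 by -0.84 ± 0.09 in WT (edgeR adjusted p = 2.60e-08), the direction of Slc29a1. KO was lower than WT by -0.73 ± 0.11 in Th17 (adjusted p = 5.51e-05, range over the alternatives 2.20e-09 to 0.00321), where Slc29a1 showed -0.02 ± 0.10.

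Of the 4 ATP release genes tested, 2 were higher and 1 lower in Th17 WT, beside 23.5% higher and 23.6% lower among all genes. Gja1, the connexin 43 gene, was higher by 1.14 ± 0.17 in WT (edgeR adjusted p = 2.24e-04) and 1.47 ± 0.16 in KO (adjusted p = 1.70e-05). Among 6 transcription factors reported to act on Entpd1 or Nt5e, 3 were higher and 3 lower in Th17 WT, beside the same shares of all genes. Stat3 was higher by 0.74 ± 0.06 (adjusted p = 2.90e-10), Gfi1 by 1.57 ± 0.13 (adjusted p = 3.83e-10) and Maf was lower by -1.45 ± 0.25 (adjusted p = 0.00121).

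**Figure D5:**
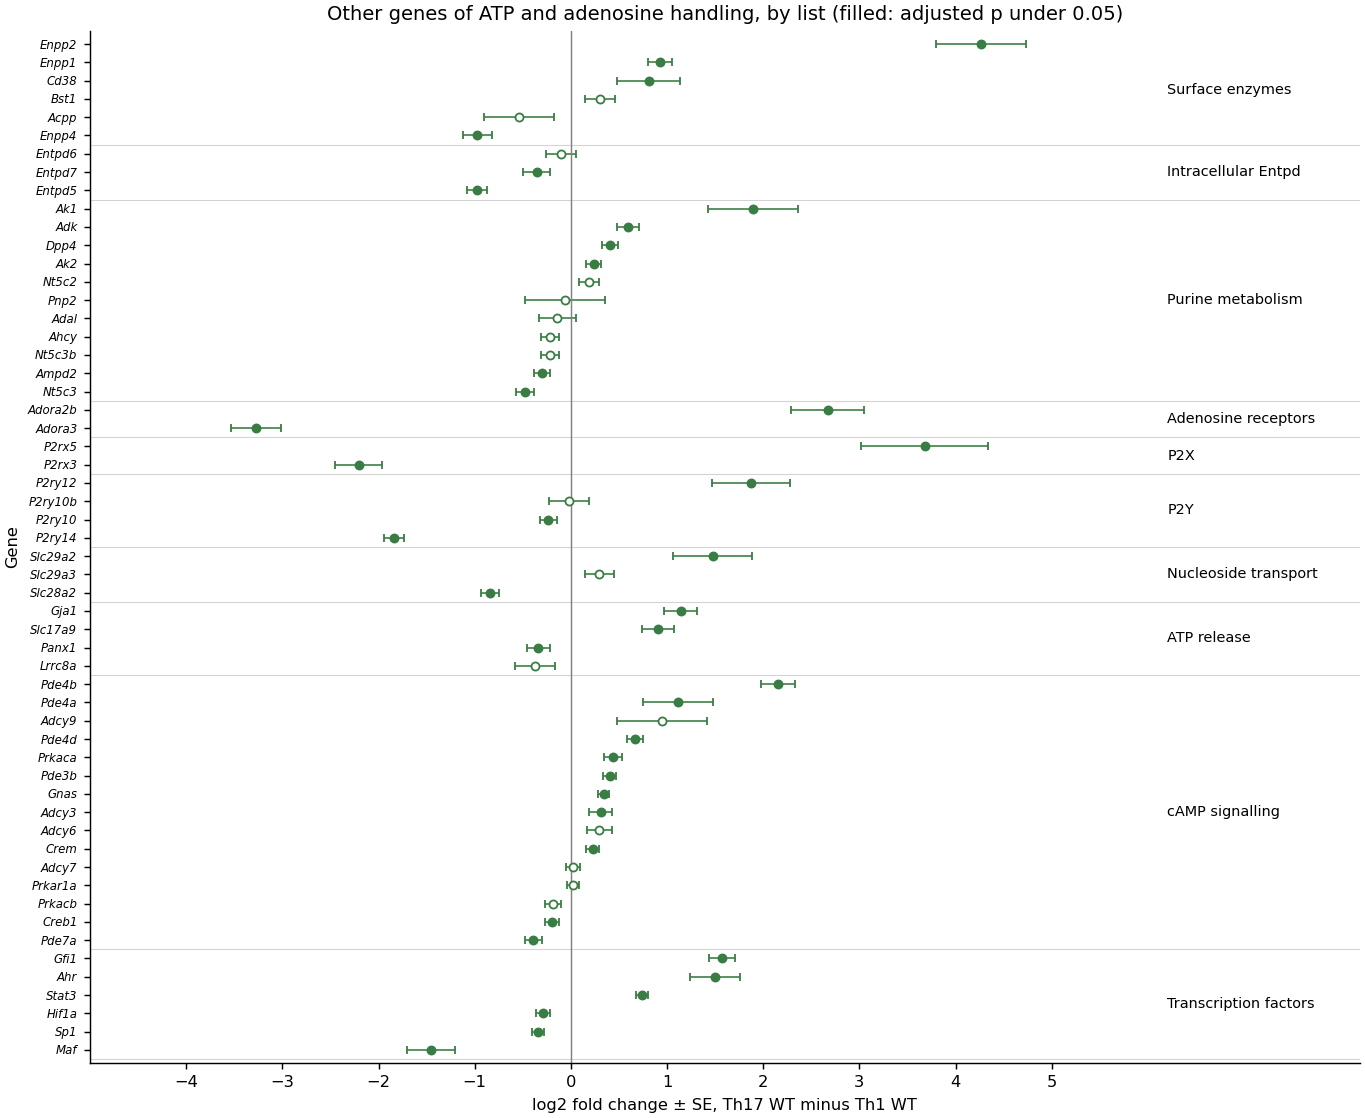
Log2 fold change ± SE of Th17 WT minus Th1 WT (x axis) for the 56 tested genes of the pathway lists, ordered within each list. Filled points passed an adjusted p of 0.05: 24 lie to the right and 16 to the left of 0. Enpp2, Ak1, P2rx5, P2ry12 and Adcy9 were tested only through Th17 libraries. Adora2b and Adora3 lie far apart, at 2.67 and -3.27, and the P2rx5 point rests on 6 counts in Th1 WT.

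Between genotypes, 4 pathway genes were called higher and 2 lower in Th1, and 3 higher and 6 lower in Th17. Of the 56 genes these are to be read beside the 4.61% of all genes called in Th1, 2.92% lower, and the 5.83% in Th17, 4.02% lower. The ranges over the alternatives were 1 to 6 higher and 0 to 6 lower in Th1, and 1 to 3 higher and 3 to 7 lower in Th17. The lower calls in Th17 were Cd38, Bst1, P2rx3, P2ry10, P2ry14 and Slc28a2. Of these, Bst1, a relative of CD38, was at -0.83 ± 0.17 (edgeR adjusted p = 0.00413, range over the alternatives 3.96e-06 to 0.152). Its adjusted p was 0.152 without Th17 WT 1 and 0.0556 without Th17 KO 1, and Fbxl5 overlaps it on the opposite strand. Cd38 was at -1.44 ± 0.38 (adjusted p = 0.0239, range over the alternatives 0.004 to 0.217), with 0.126 without Th17 WT 2, 0.0551 without Th17 WT 3 and 0.194 without Th17 KO 1. The genotype calls of P2ry14, Slc28a2 and Pde3b in Th17 were as large without the 3 shallow libraries, at -1.14 ± 0.15, -0.73 ± 0.11 and 0.45 ± 0.08.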

How the data were processed

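The 12 files hold raw read counts per Ensembl gene ID as deposited by the authors. Bowtie2, TopHat2, featureCounts and the build GRCm38 (mm10) are named in the submitters' processing notes, and strand use in counting is not given in the sources used here. RNA was converted to cDNA with a poly-A dependent Smart-Seq kit and a Nextera XT library, per the labels' protocols. Gene names and positions came from GENCODE M21, which named 37693 of 39179 IDs. Samples were grouped by title, and replicates numbered in accession order. Counts were fitted with edgeR 4.0.16 in R 4.3.3 (TMM, filterByExpr, robust quasi-likelihood F-test, 1 coefficient per group), a procedure also tested on simulated data. Alternatives were RLE scaling, DESeq2 1.42.0, limma-voom (limma 3.58.1), no filter, the 2 groups alone, no dominant ID, no shallow libraries leaving out each library and, added after the data were seen, a block by title code. CPM per kilobase used exon length. Named were the 7 genes, Klrk1, pathway genes past the threshold, the 5 genes most like Entpd1 (mean of at least 5 CPM, log2 CPM with prior count 2; 1 of them is not reported here) and, chosen after their values were seen, the neighbours of P2rx7. The genes and lists were chosen with earlier results of these data known. Replicate files were checked and none were identical or equal within sampling noise.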

Additional observations from a re-analysis of the deposited data

Results flagged for a closer look

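For 2 pathway genes the genotype difference itself differed between the cultures. For P2ry14 the log2 difference between KO and WT was -1.12 ± 0.13 (SE) in Th17 and -0.04 ± 0.07 in Th1, and Th17 minus Th1 was -1.08 ± 0.15 (edgeR adjusted p = 2.28e-04, range over the alternatives 1.34e-09 to 0.0149). All 3 Th17 KO libraries were below all 3 Th17 WT libraries, and the Th1 groups overlapped.

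For Slc28a2 the genotype difference was -0.73 ± 0.11 in Th17 and -0.14 ± 0.07 in Th1, and Th17 minus Th1 was -0.59 ± 0.13 (edgeR adjusted p = 0.0243, range over the alternatives 0.00163 to 0.104). The adjusted p was 0.0558 without the 3 shallow libraries and 0.0961 with limma-voom. It was 0.0997 without Th1 WT 2, 0.062 without Th1 KO 3, 0.104 without Th17 WT 1, 0.0728 without Th17 WT 2 and 0.0965 without Th17 KO 1.

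For 2 transcription factors every KO library lay on one side of WT in Th1 and on the opposite side in Th17, and the difference did not pass the threshold. For Crem it was 0.40 ± 0.10 (edgeR adjusted p = 0.0538, range over the alternatives 0.0396 to 0.17). For Ahr it was -1.13 ± 0.35 (adjusted p = 0.166, range over the alternatives 0.0131 to 0.498). The Th17 groups of Ahr nearly met, at 7.09 CPM in KO 1 and 7.12 in WT 2. Th17 KO 2 had 2 Ahr counts and Th17 WT 3 had 7. A downward separation alone was seen in 13.4% of all genes tested in Th1 and 9.59% in Th17. The share separating in opposite directions was not counted.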

How the results depend on the processing

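The number of genes called between genotypes in Th1 was 562 in the test as reported, 317 with DESeq2, 1071 with limma-voom and 922 with the 2 groups alone. It ran from 260 to 679 when 1 library was left out, the lowest without Th1 WT 2, with 343 without Th1 KO 1 and 293 without Th1 KO 2. In Th17 it was 711 as reported, 429 with limma-voom, 356 with the 2 groups alone and 319 without the shallow libraries. Leaving out 1 library gave 411 (Th17 WT 2) to 713, with 453 without Th17 KO 1 and 458 without Th17 KO 3. Of the 6 genes other than Entpd1, 0 were called in Th17 with limma-voom and 0 without the shallow libraries, and 0 to 2 with 1 library left out. Calls for the difference of genotype differences went from 72 to 207 without the filter, and from 38 (without Th17 KO 3) to 108.

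Directions changed only for values that were not called. With 1 library left out, P2rx4 between genotypes ran from -0.0022 (Th1 KO 2) to 0.42 in Th1 and from -0.19 to 0.018 (Th17 WT 1) in Th17. Slc29a1 in Th17 ran from -0.14 to 0.11, above 0 without Th17 WT 2 and, at 0.0039, without Th17 KO 1, and was 0.063 without the shallow libraries. Nt5e in KO between cultures ran from -0.31 (Th17 KO 1) to 1.26. The genotype difference in Th17 minus that in Th1 ran from -0.24 to 0.022 (Th17 KO 1) for Adora2a, from -0.48 to 0.30 for P2rx7, with 0.025 without Th1 WT 1, the highest without Th1 KO 2 and 0.11 with limma-voom, and from -0.18 to 0.065 (Th17 WT 2) for Slc29a1, with 0.0100 without the shallow libraries. The cause was not tested. Nt5e had 1 to 19 counts in a library.

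The labels give no replicate numbers and name no shared culture, but the running title codes of WT and KO libraries alternate. A replicate block that joins each KO library to the WT library 2 codes below it was added after the data were seen and is outside the ranges given elsewhere. Over genes, the deviations of joined libraries from their group means correlated by 0.136, 0.0287 and 0.166 in Th1 and 0.226, 0.0259 and -0.0622 in Th17, over 0.1 in 3 of 6 pairs, so the codes were not taken as a pairing. In 4 of 6 pairs both libraries correlated best with each other. With this block 1315 genes were called between genotypes in Th1, 1117 in Th17 and 329 for the difference of genotype differences. Of the 6 genes other than Entpd1, only Adora2a was called in Th1, at -0.33 ± 0.10 (edgeR adjusted p = 0.031). Nt5e at 0.027 and Slc29a1 at 0.041 changed direction in Th17 and were not called, and the other 37 gene values compared kept their direction and their side of the threshold.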
